A study of Mus musculus with 14 samples.

Results

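Netrins are secreted or membrane-anchored guidance proteins, and 10 genes of netrins and their receptors are described here: the netrins Ntn1, Ntn4 and Ntn5, the netrin-G genes Ntng1 and Ntng2, and the receptor genes Dcc, Unc5a, Unc5b, Unc5c and Unc5d. They are the rows with these symbols among 34193 genes of the deposited counts table, and all 10 passed the filter on low counts. Ntn5 was picked because it was higher in heterozygotes in these same animals, and the other 9 were listed by family name. The genotype values of Ntn5 are therefore given as a description, with no test.

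The animals were 14 C57BL/6J mice, and RNA of their cortex was collected at 8 weeks of age. A knockout allele of Dnmt3a, the gene of a DNA methyltransferase that acts on unmethylated DNA, was carried in 1 copy by 7 of them. The other 7 were wild-type littermates, and each genotype had 4 females and 3 males. The sources used here do not say how the allele was made. Sample titles open with 1 of 6 numbers (046, 047, 048, 119, 139 and 141), called title prefixes, and each prefix covers both genotypes and 1 sex; the labels do not say what it marks.

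Netrin-1 attracts growing axons through the receptor DCC and repels them through receptors of the UNC5 family, and both kinds of receptor can promote cell death when netrin is absent. Netrin-4 is a component of basement membranes, and netrin-5 is a secreted family member described in neurogenic regions of the adult brain. Netrin-G proteins are tethered to the cell surface, do not bind DCC or UNC5 receptors, and pair with leucine-rich repeat proteins across synapses. UNC5 receptors also bind FLRT proteins, and Unc5b is known from vessels as well as neurons.

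The promoters of Ntn5, Unc5a and Unc5b are shown because results below turn on these genes and because DNMT3A methylates cytosines, in neurons both within and outside CG pairs. Each sequence is RefSeq's, from the GRCm38.p6 build, and runs from 250 bases before to 50 bases after an annotated start, 5′ to 3′ on the strand of the gene. CG pairs are in capitals.
Ntn5 (chr7:45683772-45684071, plus strand): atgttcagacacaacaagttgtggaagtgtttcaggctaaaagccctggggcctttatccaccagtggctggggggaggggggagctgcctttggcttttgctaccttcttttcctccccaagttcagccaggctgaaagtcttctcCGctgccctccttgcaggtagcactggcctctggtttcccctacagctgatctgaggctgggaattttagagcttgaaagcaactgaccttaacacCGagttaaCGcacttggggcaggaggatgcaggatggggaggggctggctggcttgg
Unc5a (chr13:54949161-54949460, plus strand): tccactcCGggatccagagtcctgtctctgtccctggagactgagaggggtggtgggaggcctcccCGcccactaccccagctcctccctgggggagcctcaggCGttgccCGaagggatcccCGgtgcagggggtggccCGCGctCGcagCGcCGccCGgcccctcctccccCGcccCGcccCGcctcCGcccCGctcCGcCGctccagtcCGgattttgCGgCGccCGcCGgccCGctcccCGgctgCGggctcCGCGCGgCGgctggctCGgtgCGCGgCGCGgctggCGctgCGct
Unc5b (chr10:60831532-60831831, minus strand): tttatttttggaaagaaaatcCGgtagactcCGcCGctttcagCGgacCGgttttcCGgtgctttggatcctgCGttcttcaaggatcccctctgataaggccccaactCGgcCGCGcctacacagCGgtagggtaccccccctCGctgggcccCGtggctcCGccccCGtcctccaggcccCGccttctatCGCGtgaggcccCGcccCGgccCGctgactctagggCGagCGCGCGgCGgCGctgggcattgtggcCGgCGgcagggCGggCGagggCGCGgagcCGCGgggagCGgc
The Ntn5 window held 3 CG pairs, against 37 for Unc5a and 36 for Unc5b. Of 32851 promoter windows of the same length, 94.6% held at least 1 CG pair and the median was 7. Among the 12536 windows of tested genes the median was 20, and 7.09% of windows had as few as Ntn5 or fewer. Of the members, 7 had a window in the table. Ntng2 had 6 pairs, and Ntn4, Ntng1 and Unc5c had 31, 28 and 24. No methylation was measured in these samples, so the windows describe sequence only. The counts were made on the mm9 build, another build than that of these windows.

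Total counts per animal lay between 8951835 and 14335406. Dnmt3a, the targeted gene, lay between 124 and 164 CPM (reads of a gene scaled to the size of the library) in wild-type animals and between 84.3 and 118 CPM in heterozygotes. Animals of prefixes 119 and 141 (6 animals, 3 of each genotype) stood apart from the other 8 (4 of each genotype). Their share of counts in mitochondrial genes, ribosomal RNA left out, was 1.11% to 1.99%, against 0.571% to 0.860% in the others. Markers of cortical excitatory neurons summed to 5212 to 7016 CPM over 6 of 6 genes, with none at 0. Striatal markers, from tissue beneath the cortex, were also present, at 204 to 652 CPM in sum.

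Levels were compared between genes as CPM per kb of annotated exon. Unc5a had the highest level, at 27.0 ± 4.44 CPM per kb (SD, n = 14), followed by Ntng2 at 18.5 ± 1.11, Unc5d at 11.9 ± 1.45 and Unc5b at 6.38 ± 1.15. Below them came Unc5c at 3.89 ± 0.502, Ntng1 at 3.70 ± 0.529 and Ntn5 at 3.04 ± 0.852 CPM per kb. Ntn1 at 2.14 ± 0.314, Dcc at 1.97 ± 0.174 and Ntn4 at 1.88 ± 0.324 CPM per kb were lowest. Ranges over animals separated Ntng2 from Unc5d and Unc5d from Unc5b, and every other pair of neighbours in this order overlapped. Exon lengths were taken from another build, and Unc5c has a long annotated exon set of 19.1 kb, which lowers its value per kb. Over all 14 animals the coefficient of variation was largest among the members for Ntn5, at 28.0%, and smallest for Ntng2, at 6.02%. The value of Ntn5 includes the genotype gap for which it was picked. Within genotypes the SD of log2 CPM was 0.250 for Ntn5, below Unc5b at 0.262, Unc5a at 0.257 and Ntn4 at 0.251.

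**Figure D1:**
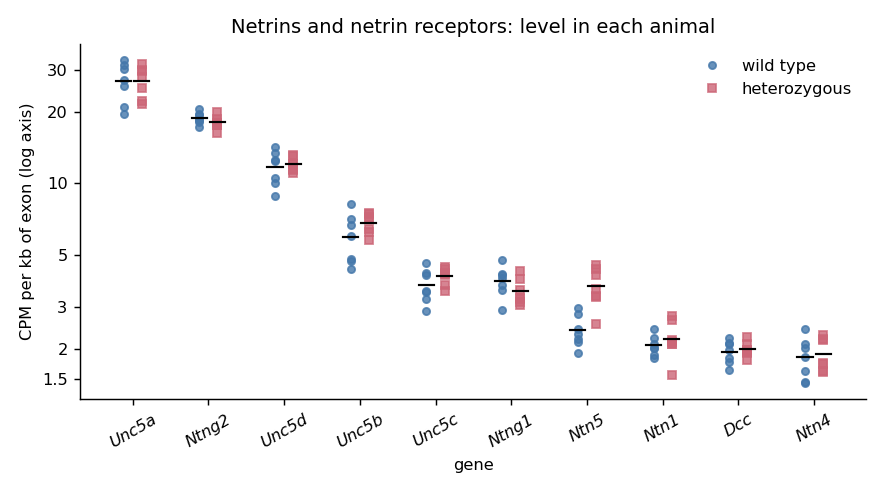
Level of each gene in CPM per kb of exon on a log axis, with 1 point per animal and a black bar at the mean of each genotype (n = 7 each). Unc5a, Ntng2 and Unc5d lie highest, and Ntn5 is the gene whose genotype means lie farthest apart.

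Ntn5 lay between 4.26 and 6.59 CPM in wild-type animals (median 5.13) and between 5.63 and 10.0 CPM in heterozygotes (median 7.92). The means were 5.32 ± 0.833 and 8.15 ± 1.53 CPM (SD, n = 7 each), so heterozygotes stood at 153% of wild type. The genotype ranges overlapped, because the lowest heterozygote, of prefix 141 (5.63 CPM), lay below the wild-type animals of prefixes 046 (6.25 CPM) and 048 (6.59 CPM). These values rest on 48 to 132 reads per animal.

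Taken by title prefix, Ntn5 was higher in heterozygotes in 6 of 6 prefixes. In prefix 139 it was at 5.13 CPM in the wild-type and 9.67 CPM in the heterozygous female. In prefix 119 it was at 4.26 and 7.92 CPM, and in prefix 047 at 5.40 and 9.06 CPM, wild type first. These are the prefixes with the widest gaps. Prefix 048 had 6.59 and 10.0 CPM, and prefix 046 had the narrowest gap, with 6.25 and 7.43 CPM. In prefix 141 the wild-type pair lay at 4.90 and 4.73 CPM and the heterozygous pair at 5.63 and 7.37 CPM. Within the animals of prefixes 119 and 141, and within the other 8, the lowest heterozygote lay above the highest wild-type animal, a pattern shared by 0.217% of all genes tested. Ntn5 was picked as higher in heterozygotes in these same animals, so neither this share nor the 6 of 6 prefixes is a test of it.

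**Figure D2:**
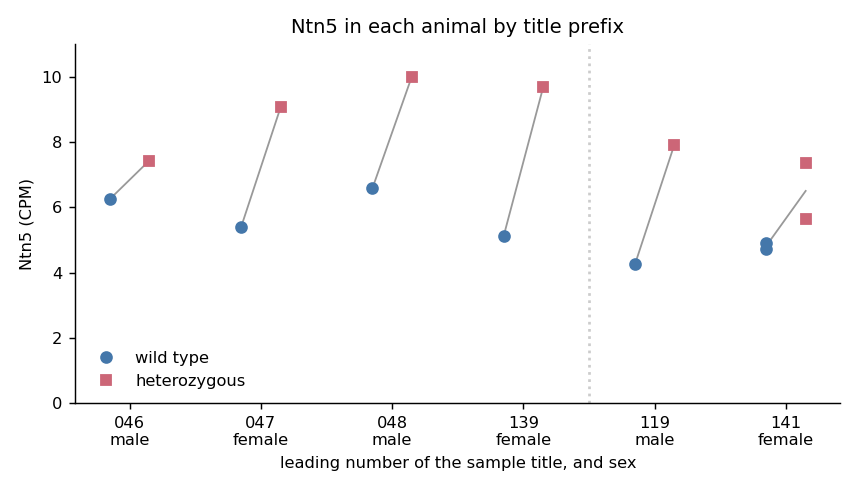
Ntn5 in CPM in each animal, by title prefix and sex; grey lines join the genotype means within a prefix and the dotted line parts prefixes 119 and 141 from the rest. In all 6 prefixes the heterozygous mean lies above the wild-type mean, by most in 139 and 119 and by least in 046.

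The fitted log2 fold change of Ntn5 was 0.61 with sex as a term, 0.61 with the prefix as a block and 0.62 with sex and the 2 sets of prefixes. The values that picked it were an adjusted p of 0.0157 by edgeR with the prefix as a block and of 0.00202 in the authors' deposited table, whose shrunken log2 fold change is 0.35. With sex alone the adjusted p was 0.351 by edgeR and 0.0309 by DESeq2, which called 11 genes in all. With sex and set it was 0.0175 by edgeR. All these p-values come from the contrast that picked the gene and are no test of it. The same edgeR fits called 0.405% of all genes with the block, 0.109% with the set term and 0.0145% with sex alone, and the authors' deposited table called 0.191%. The log2 fold change was 0.63 in animals of prefixes 046, 047, 048 and 139 and 0.59 in those of 119 and 141. It was 0.64 in females and 0.58 in males.

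Ntn5 lies on chromosome 7 between Sec1, a fucosyltransferase gene on the opposite strand, and Car11, a gene of the carbonic anhydrase family, which is followed by Dbp, a transcription factor gene of circadian output. Sec1 spans part of Ntn5, and 519 of 2216 exon bases of Ntn5 (23.4%) are also exon of Sec1. The sources used here do not say if reads were counted by strand, and reads of this stretch could belong to either gene. Sec1 itself had 5 to 17 reads per animal, against 48 to 132 for Ntn5. Its level was 0.753 ± 0.337 CPM in wild-type and 0.966 ± 0.331 CPM in heterozygous animals (SD, n = 7 each), with a log2 fold change of 0.34 (SE 0.296) and overlapping ranges.

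Car11 and Dbp did not share the difference of Ntn5 in size. Car11 was at 70.1 ± 5.41 and 68.9 ± 6.87 CPM (wild type first, SD, n = 7 each; log2 fold change -0.024, SE 0.0683, adjusted p = 0.986 by edgeR). Dbp was at 91.0 ± 13.7 and 90.8 ± 15.8 CPM (log2 fold change -0.0013, SE 0.118, adjusted p = 0.999 by edgeR). Fut2, the gene before Sec1, had at most 6 reads in any animal and was not tested.

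**Figure D3:**
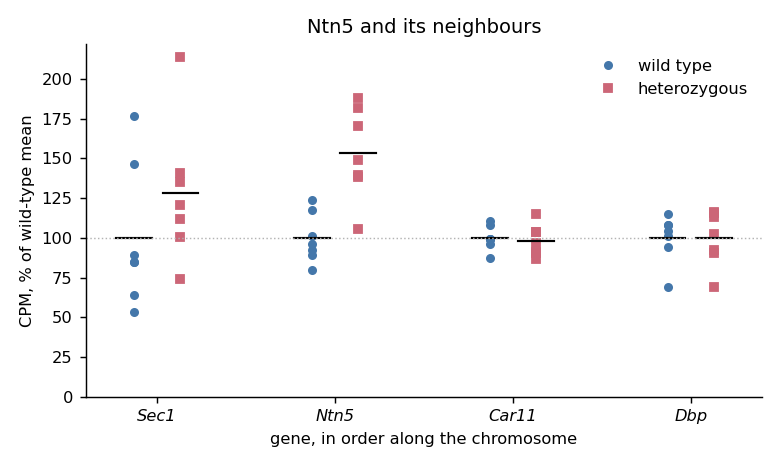
Sec1, Ntn5, Car11 and Dbp in each animal as a percentage of the wild-type mean CPM of that gene; black bars are genotype means (n = 7 each). Heterozygotes average 153% for Ntn5, while Car11 and Dbp centre on the wild-type mean and Sec1, with 5 to 17 reads per animal, scatters widely.

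Of the neuroblast and neurogenic zone markers, 7 of 7 were in the table and none was at 0. Their summed level was 84.0 to 96.9 CPM among wild-type animals and 81.2 to 97.2 CPM among heterozygotes. Their part in the Ntn5 values was not tested. Oligodendrocyte markers (7 of 7, none at 0) summed to 3386 to 5941 CPM for wild type and 3371 to 5793 CPM for heterozygotes. Bulk tissue cannot tell more Ntn5 RNA per cell from more cells that express it.

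Among the other secreted netrins, Ntn1 lay between 11.4 and 15.2 CPM in wild-type (median 12.7) and between 9.73 and 17.4 CPM in heterozygous animals (median 13.4). The heterozygous range enclosed the wild-type one, and the log2 fold change was 0.087 (SE 0.106). Ntn4 lay between 5.37 and 9.05 CPM in wild-type (median 6.93) and between 5.99 and 8.56 CPM in heterozygous animals (median 6.54), with a log2 fold change of 0.048 (SE 0.127). Ntn4 and Ntn5 had nearly the same mean CPM over all animals, 7.02 and 6.74, and the genotype ranges of Ntn4 overlapped. The log2 fold change of Ntn4 was 0.31 in prefixes 119 and 141 alone and -0.10 in prefixes 046, 047, 048 and 139 alone. Ntn5 was picked for its genotype gap and Ntn4 was not. Setting them side by side therefore cannot tell if the gap of Ntn5 exceeds the noise at such counts.

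The netrin-G genes had negative values. Ntng1 lay between 24.1 and 39.1 CPM in wild-type (median 32.8) and between 25.4 and 35.1 CPM in heterozygous animals (median 27.0), with a log2 fold change of -0.16 (SE 0.0927). It was lower in heterozygotes in 5 of 6 prefixes, the exception being 046 (33.8 CPM in wild type and 35.1 CPM in the heterozygote). The gap was wide only in the female prefixes 047 (39.1 and 25.4 CPM, wild type first) and 139 (34.3 and 27.0 CPM). Heterozygotes stood at 0.995 of wild type in 048, 0.987 in 141 and 0.950 in 119. The fitted log2 fold change of Ntng1 was -0.27 in females and -0.0059 in males. Ntng2 lay between 69.3 and 81.8 CPM in wild-type and between 65.1 and 79.6 CPM in heterozygous animals, with a log2 fold change of -0.062 (SE 0.0574). On the same strand, 558 of 3990 exon bases of Ntng2 are also exon of 6530402F18Rik, a non-coding transcript with 385 reads per animal on average, so reads of that stretch could be assigned to either.

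Dcc, the attractant receptor, was at 25.7 ± 2.80 CPM in wild-type and 26.3 ± 1.85 CPM in heterozygous animals (SD, n = 7 each; log2 fold change 0.032, SE 0.0747). Among the UNC5 receptors, Unc5a was at 113 ± 21.6 and 113 ± 16.5 CPM (wild type first), Unc5c at 71.2 ± 11.6 and 77.8 ± 6.30 CPM and Unc5d at 108 ± 18.1 and 111 ± 7.46 CPM. Unc5b lay between 27.3 and 51.0 CPM in wild-type (median 37.5) and between 35.9 and 46.9 CPM in heterozygous animals (median 44.5). Wild-type animals spread more widely than heterozygotes in all 4 UNC5 genes, and every pair of genotype ranges overlapped. Their log2 fold changes were -0.0031 (SE 0.115) for Unc5a, 0.19 (SE 0.117) for Unc5b, 0.13 (SE 0.0895) for Unc5c and 0.034 (SE 0.0886) for Unc5d.

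Counted over the 9 members other than Ntn5, 0 were called by genotype in edgeR's fit with sex, 0 with the block, 0 with the set term and 0 by DESeq2. In edgeR's fit with sex, 0 of the 9 had an unadjusted p under 0.05. The authors' deposited table called none of the 9, its smallest adjusted p being 0.276 for Unc5b. Before adjustment that p in the authors' comparison was 0.00433, so Unc5b was under 0.05 there. These counts are from the contrast that picked Ntn5 and stand beside background shares of 0.0145%, 0.405% and 0.109% in the edgeR fits. DESeq2 called 11 genes in all, and 552 of all genes tested (4.00%) had an unadjusted p under 0.05 by edgeR. Over the 9 genes, 6 log2 fold changes were positive with a median of 0.034, and over all genes tested the median was 0.0024.

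**Figure D4:**
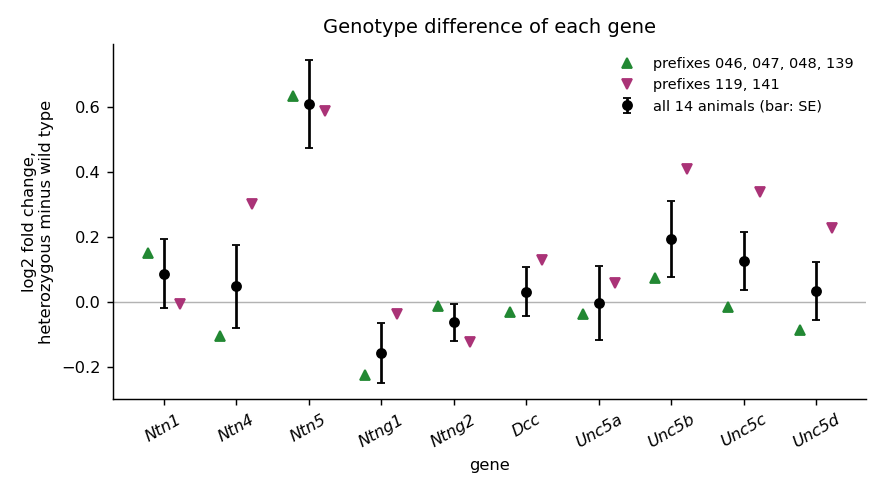
Log2 fold change of heterozygous against wild-type animals for each gene. Black points with SE bars are the fit of all 14 animals and triangles are the 2 sets of prefixes from a fit with a genotype term in each; Ntn5 lies near 0.6 in all 3, and Unc5b, Unc5c and Unc5d lie higher in prefixes 119 and 141.

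Differences between the 6 prefixes were tested with genotype as a term. The prefix stood as a block in 1 fit that picked Ntn5, but differences between prefixes chose no member. By edgeR's quasi-likelihood test, 4 of 10 members differed by prefix, where 33.2% of all genes tested did, so the members' share is near the background. They were Unc5a (adjusted p = 3.39e-05), Unc5b (adjusted p = 0.000942), Unc5d (adjusted p = 0.0200) and Ntn1 (adjusted p = 0.0490). Unc5d no longer passed without wild type replicate 2 (adjusted p = 0.0590) or 5 (adjusted p = 0.0530), and Ntn1 with upper quartile normalization (adjusted p = 0.0664), with DESeq2 (adjusted p = 0.135) and without any 1 of 11 animals. Each prefix holds 1 sex, so this comparison includes any sex difference.

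Unc5a, a receptor gene of high level in cortex, had the clearest pattern. It lay between 114 and 138 CPM in the 8 animals of prefixes 046, 047, 048 and 139 (median 126) and between 81.7 and 108 CPM in the 6 animals of 119 and 141 (median 91.8). The sets did not overlap. The same holds, in this direction, for 6.16% of all genes tested, and since the sets were first named from a principal component of all genes, their difference is given with no test. By prefix the mean was 107 CPM in 119 and 88.3 CPM in 141, and 123 to 131 CPM in the other 4.

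Unc5b followed the same order with overlap, at 37.5 to 51.0 CPM in the first set and 27.3 to 40.0 CPM in the second. Unc5d lay between 106 and 132 CPM and between 81.8 and 111 CPM. The fitted log2 differences between the sets (119 and 141 minus the others) were -0.41 for Unc5a, -0.40 for Unc5b and -0.25 for Unc5d. Ntn5 itself had -0.35, Ntn1 -0.25, Ntn4 -0.25, Ntng1 -0.21, Dcc -0.18 and Unc5c -0.16. Ntng2, at 0.018, was the 1 member of the 10 with a positive value. The median over members was -0.25 and over all genes tested -0.0013.

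Within the 8 animals of prefixes 046, 047, 048 and 139 alone, 0 of 10 members differed by prefix, where edgeR called 0.628% of genes; adjusted p was between 0.667 and 0.940. Marker lists also differed between the sets. Upper-layer neuron markers (5 of 5, none at 0) summed to 727 to 856 CPM in those 8 animals and 644 to 730 CPM in prefixes 119 and 141. Interneuron markers (6 of 6, none at 0) summed to 707 to 823 and 536 to 691 CPM. That list was split. Its fitted log2 differences (119 and 141 minus the others) ran from -0.65 for Slc32a1 to 0.26 for Pvalb, with Vip at 0.13. Astrocyte markers (6 of 6, none at 0) summed to 1536 to 1835 and 1868 to 2885 CPM. The part of these marker lists in the differences of Unc5a, Unc5b and Unc5d was not tested.

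Whether the genotype difference itself varied between the 2 sets was tested with an interaction term. The sets were first named from a principal component of all genes in these same data, so they were not fixed in advance. By edgeR 0 of 10 members passed, as did 0% of all genes; unadjusted p was under 0.05 for 3 members and for 2036 genes, and DESeq2 called 250 genes, none of them a member, with no adjusted p given for Ntn1, Ntn4, Ntn5, Ntng1, Dcc and Unc5b. The 3 members were UNC5 receptors. The difference of log2 fold changes (119 and 141 minus the others) was 0.34 (SE 0.116, adjusted p = 0.175 by edgeR) for Unc5b, 0.36 (SE 0.126, adjusted p = 0.192 by edgeR) for Unc5c and 0.31 (SE 0.101, adjusted p = 0.154 by edgeR) for Unc5d. Ntn4 had 0.41 (SE 0.219), Unc5a 0.095 (SE 0.116) and Ntn5 -0.046 (SE 0.232).

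In prefixes 119 and 141, Unc5b lay between 27.3 and 29.9 CPM in the 3 wild-type animals and between 35.9 and 40.0 CPM in the 3 heterozygotes. Unc5c lay at 55.3 to 67.2 and 71.5 to 83.3 CPM, and Unc5d at 81.8 to 97.5 and 102 to 111 CPM. None of these ranges overlapped. Ntn5 also parted upward there, and Ntng2 parted downward, at 72.7 to 81.8 CPM in the wild-type animals and 70.5 to 72.0 CPM in the heterozygotes. Of all genes tested, 10.8% parted upward and 11.3% downward among these 6 animals, beside 4 and 1 of the 10 members. The 4 include Ntn5, which was picked as higher in heterozygotes in these same animals. In the other 8 animals the genotypes overlapped for all 3, where Unc5b spanned 37.5 to 51.0 CPM for wild type and 44.5 to 46.9 CPM for heterozygotes. Heterozygotes of 119 and 141 therefore lay closer to the other 8 animals than their wild-type counterparts did.

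With a block for each title prefix and no sex term, Unc5d passed the interaction test (0.31, adjusted p = 0.0328 by edgeR), where 5.55% of all genes passed. Unc5b (adjusted p = 0.0661 by edgeR) and Unc5c (adjusted p = 0.111 by edgeR) did not. Without wild type replicate 4, of prefix 048, Unc5c (adjusted p = 0.0195 by edgeR) and Unc5d (adjusted p = 0.0405 by edgeR) passed in the fit with sex. In a fit of the 6 animals of prefixes 119 and 141 alone, edgeR called 16.6% of all genes by genotype. Among the 9 members other than Ntn5, these included Unc5b, Unc5c and Unc5d. In the other 8 animals alone edgeR called 0 of all genes, so the lack of a call there is not particular to the UNC5 genes.

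Other measures moved with genotype within prefixes 119 and 141. The mitochondrial share of counts was 1.82% ± 0.269 for wild type and 1.37% ± 0.234 for heterozygotes there (SD, n = 3 each), and 0.699% ± 0.136 and 0.695% ± 0.0835 in the other set (SD, n = 4 each). Upper-layer neuron markers of 119 and 141 summed to 644 to 696 CPM for wild type and 724 to 730 CPM for heterozygotes. Excitatory neuron markers summed to 6412 to 7016 and 5371 to 5951 CPM, and endothelial and pericyte markers (7 of 7, none at 0) to 226 to 259 and 219.9 to 220.1 CPM. Their part in the values of the UNC5 genes was not tested.

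**Figure D5:**
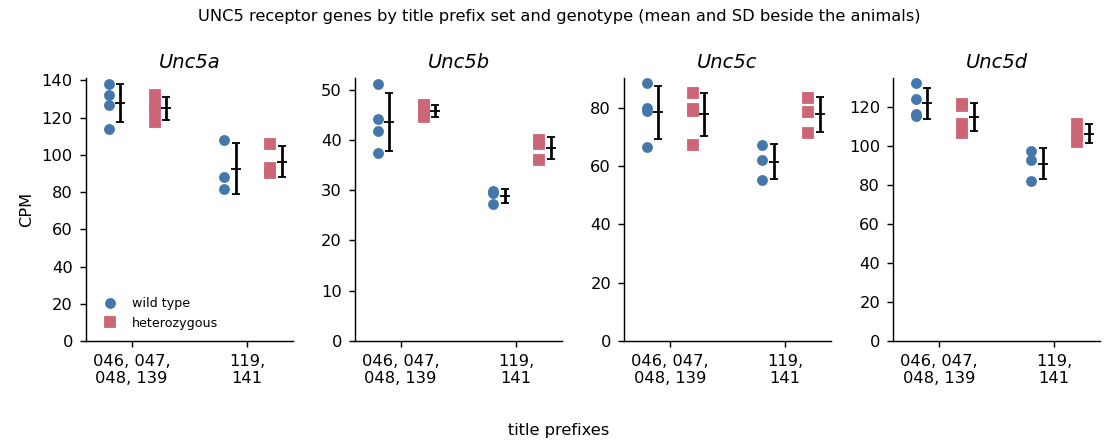
The 4 UNC5 receptor genes in CPM, with 1 point per animal by genotype and set of title prefixes; black marks give the mean and SD (n = 4 and n = 3 per genotype). Unc5a is lower in prefixes 119 and 141 in both genotypes, and so is Unc5b, by more in wild-type animals. Unc5c and Unc5d are lower there mainly in wild-type animals.

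Sex was compared with genotype as a term. Of the 10 members 0 differed between females and males by edgeR, 0 by DESeq2 and 0 at an unadjusted p under 0.05, where edgeR called 0.00724% of all genes tested and 964 genes had an unadjusted p under 0.05. All 10 fitted differences were negative, female minus male, from -0.015 for Ntng2 to -0.22 (SE 0.128, adjusted p = 0.710 by edgeR) for Ntn4. Of the 6 animals of prefixes 119 and 141, 4 were female, so sex and set were partly mixed. In the 8 animals of the other prefixes Unc5a had 0.034. The genotype difference did not pass a test of its difference between the sexes for any member by edgeR or DESeq2, and 0% of all genes passed. For Ntn5 the difference of log2 fold changes (female minus male) was 0.057 (SE 0.280), and the widest value was -0.27 (SE 0.182) for Ntng1.

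Genes whose log2 CPM followed that of Ntn5 most closely over the 14 animals were, in order, Pamr1 (Pearson's r = 0.848), Fbxo27 (0.841), Slc43a2 (0.837) and Pigz (0.822), out of 12895 genes with a mean of at least 20 reads. All 4 had positive genotype values, from 0.24 for Slc43a2 to 0.42 for Fbxo27 on the log2 scale. Ntn5 was picked as higher in heterozygotes, so genes chosen for following it would tend to share that sign. Among the members, Unc5b (0.736) and Ntn1 (0.668) were closest. The animals share genotype, sex and prefix, and Ntn5 has few reads. After genotype and prefix were subtracted the closest were 5 other genes, Nkd2 (0.949), Adamts8 (0.946), Parp4 (0.937), Zkscan3 (0.933) and Kctd15 (0.927). Ntn1 was then at 0.709 and Unc5b at 0.407. These values are descriptions of the 14 animals. The subtraction leaves fewer independent values than animals, because what remains cancels out within each prefix. The 5 genes are also the highest of the 12895 compared. Their r therefore does not by itself show a close link to Ntn5. How high r would reach in this way for genes unrelated to Ntn5 was not tested.

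Other genes of the pathway were taken from lists chosen by function. Of 8 further netrins, netrin receptors and netrin-G ligands, 7 were tested, and 0 passed by genotype in either direction with sex, with the block or with the set term. Of 7 other ligands of these receptors and 24 signalling genes downstream, all were tested and 0 passed in the same 3 fits. The medians were 0.12, 0.061 and 0.020 on the log2 scale, beside 0.0024 over all genes tested. Ntn3, a further secreted netrin, had -0.063 (SE 0.115), and Neo1, the neogenin receptor related to Dcc, had 0.030 (SE 0.0560).

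The smallest unadjusted p upward belonged to Flrt2, which encodes a ligand of UNC5 receptors (0.20, SE 0.0725, adjusted p = 0.978 by edgeR), and to Lrrc4c, the ligand of netrin-G1 (0.13, SE 0.0670, adjusted p = 0.978 by edgeR). Downward they belonged to Src, a kinase gene (-0.11, SE 0.0544, adjusted p = 0.978 by edgeR), and Myo10, a motor that carries DCC in filopodia (-0.13, SE 0.110, adjusted p = 0.978 by edgeR).

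By title prefix, 3 of the 7 further netrins, receptors and netrin-G ligands passed (Dscam, Dscaml1 and Lrrc4), as did 4 of the 7 other ligands (Rgmb, Flrt1, Flrt2 and Flrt3). Of the 24 signalling genes 11 passed: Nck1, Nck2, Ptk2, Cdc42, Trio, Dock1, Enah, Myo10, Dapk1, Maged1 and Tubb3. These stand beside the 33.2% of all genes. Tubb3, a neuronal tubulin gene, was lower in prefixes 119 and 141 (-0.48, adjusted p over the 6 prefixes = 3.19e-06 by edgeR), and Dock1, which encodes an activator of Rac1, was higher (0.38, adjusted p = 0.000170 by edgeR). In the test of the genotype difference between the sets, 0 genes of the 3 lists passed. Unadjusted p was under 0.05 for 10 of the 38 list genes tested, where 14.7% of all genes had such a p. The smallest belonged to Maged1, which encodes a protein that binds UNC5A (0.37, adjusted p = 0.115 by edgeR), then to Lrrc4c (0.30, adjusted p = 0.151 by edgeR), Myo10 (-0.37, adjusted p = 0.155 by edgeR) and Flrt2 (0.32, adjusted p = 0.165 by edgeR).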

How the data were processed

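RNA of the cortex of 14 mice was sequenced as single-end reads of 50 bases from a directional library kit, per the labels' protocols. The authors deposited 1 table of raw counts per gene symbol, with no normalization. The submitters' processing notes name the mm9 build and bedtools, STAR, Bowtie and Trim Galore, and give no roles or versions. The molecule field of the labels reads genomic DNA, against their protocols, which describe RNA. The deposited table also holds the authors' own comparison by genotype: per the file headers, a test statistic (a score), a log2 fold change and p-values before and after adjustment. DESeq2 1.42.0 with a fold change prior and terms for sex and set of prefixes matched the deposited log2 fold changes to within 5.12e-07, so those are shrunken.

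Counts were tested with edgeR 4.0.16 (R 4.3.3) (quasi-likelihood F test), TMM factors, robust dispersion and filterByExpr by genotype (13815 of 34193 genes, 99.9% of counts). P-values were adjusted by Benjamini-Hochberg over all genes tested at 0.05. The functions were tested on simulated counts. The prefix comparison tested 5 terms together. CPM used TMM-scaled library sizes. Log2 CPM had a prior count of 2. Each standard error was derived from its fold change and F. Exon lengths and overlaps came from GENCODE M21 (GRCm38), matched by symbol, and promoter sequences from RefSeq.

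Animals of the 2 genotypes that share a prefix deviated together from their genotype means (correlation over genes 0.200 to 0.517 in 9 pairs, each above 0.1), so the prefix also served as a block. Sex and set are shared within a prefix and could give this alone. The 2 sets of prefixes are not in the labels. The members and lists were chosen with earlier results of these data known. Named genes were all members, the 2 nearest annotated genes on each side of Ntn5, the 5 genes most like Ntn5 by each of 2 measures (1 of them is not reported here), and list genes past a threshold or with the smallest p. The labels do not state outright that each sample is a separate animal, and p-values measure the spread between samples. Alternatives were other normalizations, no filter on low counts, DESeq2, other covariates, subsets of animals and leaving out each animal.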

Additional observations from a re-analysis of the deposited data

How the results depend on the processing

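The log2 fold change of Ntn5 by genotype stayed between 0.54 and 0.68 over 25 alternatives, 14 of which left out 1 animal. Over all genes, 2 were called by genotype in the fit with sex, 11 by DESeq2, 56 with the title prefix as a replicate block, 15 with sex and set, 0 in animals of prefixes 046, 047, 048 and 139, 2304 in those of 119 and 141, 0 in females, 0 in males, and 1 to 4 without any single animal. The cause was not tested.

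Of the 9 other members, 3 were called by genotype in prefixes 119 and 141 alone and 0 under the other alternatives. Of the 38 other pathway genes tested, 18 were called there, beside 16.6% of all genes, and 0 under the other alternatives. Of 225 genotype values of the 9 members under alternatives, 221 moved by less than the spread between animals. By prefix, 4 members were called in the fit of all animals, 0 in prefixes 046, 047, 048 and 139 alone, and 2 to 5 without any single animal. Unc5a and Unc5b passed in each of the latter. The genotype difference between the sets was called for 0 members, for 1 with the replicate block, and for 0 to 2 without any single animal. Among sex differences Ntng2 ranged from -0.042 to 0.015 without single animals, and Unc5a turned to 0.034 in prefixes 046, 047, 048 and 139. The replicate block changed no other call on a member than those of Ntn5 by genotype and of Unc5d between the sets.

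Depth limits Ntn5 (48 to 132 reads per animal) and Ntn4 (53 to 123 reads per animal) most among the members.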
